A study of Mus musculus with 37 samples.

Results

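The Hox genes are homeobox transcription factor genes that lie in 4 clusters, Hoxa, Hoxb, Hoxc and Hoxd. The members described here are all rows whose symbol is Hoxa, Hoxb, Hoxc or Hoxd followed by a number only, which gave 39 genes of the 24318 rows in each of 2 expression tables. They comprise 11 Hoxa, 10 Hoxb, 9 Hoxc and 9 Hoxd genes. The number in a name is the paralogue number: low numbers sit at the end of the cluster that is switched on first and most anteriorly in the embryo, and high numbers mark the tail, limb and urogenital region. The members hold 8 genes numbered 1 to 3 (anterior), 15 numbered 4 to 8 (central) and 16 numbered 9 to 13 (posterior).

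Hox genes give cells of the trunk their position along the body axis, and Polycomb complexes keep the clusters silent where they are not used. Primordial germ cells (PGCs), from which oocytes and sperm later arise, form at the posterior end of the embryo beside mesoderm that is turning Hox genes on, and shutting off that somatic programme is a known part of germ cell specification. The question that the members address here is whether Hox RNA stays low in PGCs that lack Dnmt1, the enzyme that copies DNA methylation at CG dinucleotides onto the new strand at replication.

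Polyadenylated RNA of sorted PGCs was sequenced from mouse embryos of both sexes at embryonic days E10.5 and E11.5. The conditional knockout (DCKO, genotype given as Dnmt1 -/-) came from mothers homozygous for Oct4-IRES-Gfp, a green fluorescent reporter of germ cells, and for the floxed allele Dnmt1 2lox, mated with males carrying Blimp1-Cre. By that cross, controls and DCKO embryos alike would carry the reporter and a floxed allele from the mother. The controls are given as wild type, and the labels do not say which alleles each control carried. Blimp1-Cre is driven by the gene for Blimp1 (Prdm1), which is active in germ cells from their specification and is not restricted to them. Values were at hand for 25 libraries: at E10.5 2 female and 2 male control and 2 female and 1 male DCKO libraries, and at E11.5 4 female and 4 male control and 6 female and 4 male DCKO libraries. The 12 samples of a later stage in the series were not analysed here. Nothing in the labels states that libraries of the same group are separate embryos, and p-values then describe only how much these samples vary, which may be technical.

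Because Dnmt1 acts on CG dinucleotides, the sequence just before the start of 1 member of each cluster is shown, each a member given in full below and present in the RefSeq promoter table (build GRCm38.p6). Each line is the 250 bases before the start, 5′ to 3′ on the gene's own strand, with every CG in capitals. The Hoxa5 stretch is chr6:52204588-52204837 on the minus strand, the Hoxb8 stretch is chr11:96281655-96281904 on the plus strand, the Hoxc4 stretch is chr15:103034145-103034394 on the plus strand and the Hoxd9 stretch is chr2:74697513-74697762 on the plus strand.
Hoxa5: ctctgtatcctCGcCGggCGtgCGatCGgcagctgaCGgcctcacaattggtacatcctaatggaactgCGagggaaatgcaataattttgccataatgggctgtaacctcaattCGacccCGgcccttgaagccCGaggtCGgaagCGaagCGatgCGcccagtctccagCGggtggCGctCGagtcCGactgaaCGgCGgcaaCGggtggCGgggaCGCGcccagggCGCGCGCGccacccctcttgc
Hoxb8: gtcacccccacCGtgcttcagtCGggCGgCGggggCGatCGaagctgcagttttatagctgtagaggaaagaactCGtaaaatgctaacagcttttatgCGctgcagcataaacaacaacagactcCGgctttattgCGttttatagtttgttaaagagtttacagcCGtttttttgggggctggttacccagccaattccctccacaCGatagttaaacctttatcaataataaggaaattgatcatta
Hoxc4: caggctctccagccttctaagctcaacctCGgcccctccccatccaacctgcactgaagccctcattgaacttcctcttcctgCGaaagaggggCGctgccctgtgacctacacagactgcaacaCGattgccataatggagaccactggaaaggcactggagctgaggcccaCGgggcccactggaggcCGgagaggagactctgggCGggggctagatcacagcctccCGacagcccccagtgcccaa
Hoxd9: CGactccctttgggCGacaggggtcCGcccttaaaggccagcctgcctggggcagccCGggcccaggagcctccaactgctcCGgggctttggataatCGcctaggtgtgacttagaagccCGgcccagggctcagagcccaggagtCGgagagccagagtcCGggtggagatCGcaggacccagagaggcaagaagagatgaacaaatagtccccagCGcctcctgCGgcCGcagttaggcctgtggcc
They hold 28, 12, 8 and 13 CG, in the order printed. Of all 32851 stretches of this length in the table, 7.61% hold as many CG as Hoxa5 or more, 33.5% as many as Hoxb8, 43.0% as many as Hoxc4 and 31.5% as many as Hoxd9. The table held 24 stretches for 22 of the 39 members, with a median of 12.5 CG and a range of 2 to 35, the highest being Hoxa13. The median of all stretches was 6, and 10 or more CG stood in 15 of the 24 Hox stretches and in 37.8% of all. Across the 22 members with a stretch, the CG count and the mean level at E11.5 had a Spearman's rho of 0.14. For the 16 of them tested at E11.5, the CG count and the log2 difference DCKO minus control (given below) had a rho of -0.27. Both are descriptions across genes that share libraries and, within a cluster, neighbours. Methylation itself was not measured in these files.

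All values are in RPKM (reads per transcript length and per mapped read, on the usual kilobase and megaread scale). Summed over all genes, libraries held 669740.0 to 1121160.0 RPKM at the earlier stage and 516450.0 to 1027690.0 RPKM at the later one, and the depth in reads is unknown. The knocked-out gene itself, Dnmt1, had no overlap between genotypes: at E10.5 the 3 DCKO libraries had 14.9 to 29.6 RPKM and the 4 controls 74.1 to 107, and at E11.5 the 10 DCKO libraries had 13 to 59.4 RPKM and the 8 controls 72.9 to 296. The 15 markers of germ cell identity (Pou5f1, Dppa3, Prdm14 and others) were above 0 in every library apart from Nanos3, listed at 0 in 2 E11.5 libraries. Some libraries stood apart in markers of somatic cells, taken as the mean log2(RPKM + 1) over 68 markers of gonadal somatic cells, mesenchyme, endothelium, red cells, macrophages and gut. Some of the 68 averaged high levels in both genotypes at E10.5, such as Epcam (170 RPKM in controls, 217 in DCKO) and Fn1 (104 and 106). The mean of the 68 may thus not be somatic RNA alone. At E11.5 this mean was 3.58 in male control 3, 2.88 in female DCKO 4 and 2.19 in male DCKO 1, and 0.69 to 1.91 in the other 15. Germ cell markers were lowest in the same 3 libraries, at a mean log2 of 3.42, 5.06 and 5.06, against 5.44 to 6.68 in the rest. At E10.5 male control 2 was highest in somatic markers (2.23, against 0.58 to 1.35). Male control 3, female DCKO 4 and female control 3 (the next highest in somatic markers after the 3 above) share the first number in their titles, whose meaning is not given, and no other E11.5 library has that number. Counts and medians over the members at E11.5 are also given without the 3 libraries highest in somatic markers.

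Hox RNA was low in most E10.5 libraries. Of the 273 Hox values at this stage (39 genes in 7 libraries), 181 were listed at 0 and 30, or 10.99%, reached 1 RPKM, while 42.1% of the values of all genes did. Without male control 2 the Hox share at 1 RPKM was 4.27% (10 of 234 values) and that of all genes 41.5%. Since an exact 0 in RPKM may stand for an estimate that failed, such genes are only called listed at 0.

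The summed RPKM of the 39 members at E10.5 was 33.0 and 4.89 in the female controls, 5.33 and 102 in the male controls, 11.2 and 4.08 in the female DCKO libraries and 0.419 in the male DCKO library. Male control 2 was the highest and male DCKO 1 the lowest, and the other 5 libraries of both genotypes interleaved between 4.08 and 33.0. Male DCKO 1 was second in the somatic marker mean (1.35) while no Hox gene reached 1 RPKM in it. Its 14 mesenchyme markers summed to 171 RPKM, with 9 listed at 0 and 2 at 1 RPKM or more. Its red cell markers summed to 2163 RPKM. In male control 2, 20 of the 39 members reached 1 RPKM, spread over Hoxa (5), Hoxb (6), Hoxc (4) and Hoxd (5).

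The E10.5 members with the highest mean RPKM were Hoxc8, Hoxb7, Hoxa5 and Hoxc6, all central genes that pattern the thoracic and upper trunk region. Hoxb7 was listed at 0 in 6 libraries and at 15.9 RPKM in male control 2. Hoxa5, which acts in the neck, lung and upper rib region, was at 0.259 and 0.0264 RPKM in the female controls, 0 and 12.1 in the male controls, 0 and 2.85 in the female DCKO and 0 in the male DCKO libraries. For both genes 1 or 2 libraries made up nearly all of the mean. Hoxc6 was at 13.52 and 0 RPKM in the female controls, 0.555 and 0.893 in the male controls, 0 and 0.0359 in the female DCKO and 0.0332 in the male DCKO libraries. Hoxc4, named for its small p below, was at 8.83 RPKM in male control 2 and at most 0.133 RPKM in the other 6 libraries. Single members also led most other libraries: Hoxc6 held 41.0% of the summed Hox RPKM in female control 1, Hoxc8 81.7% in male control 1, Hoxb5 70.4% in female DCKO 1, Hoxa5 69.8% in female DCKO 2 and Hoxd8 80.1% in male DCKO 1.

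**Figure D1:**
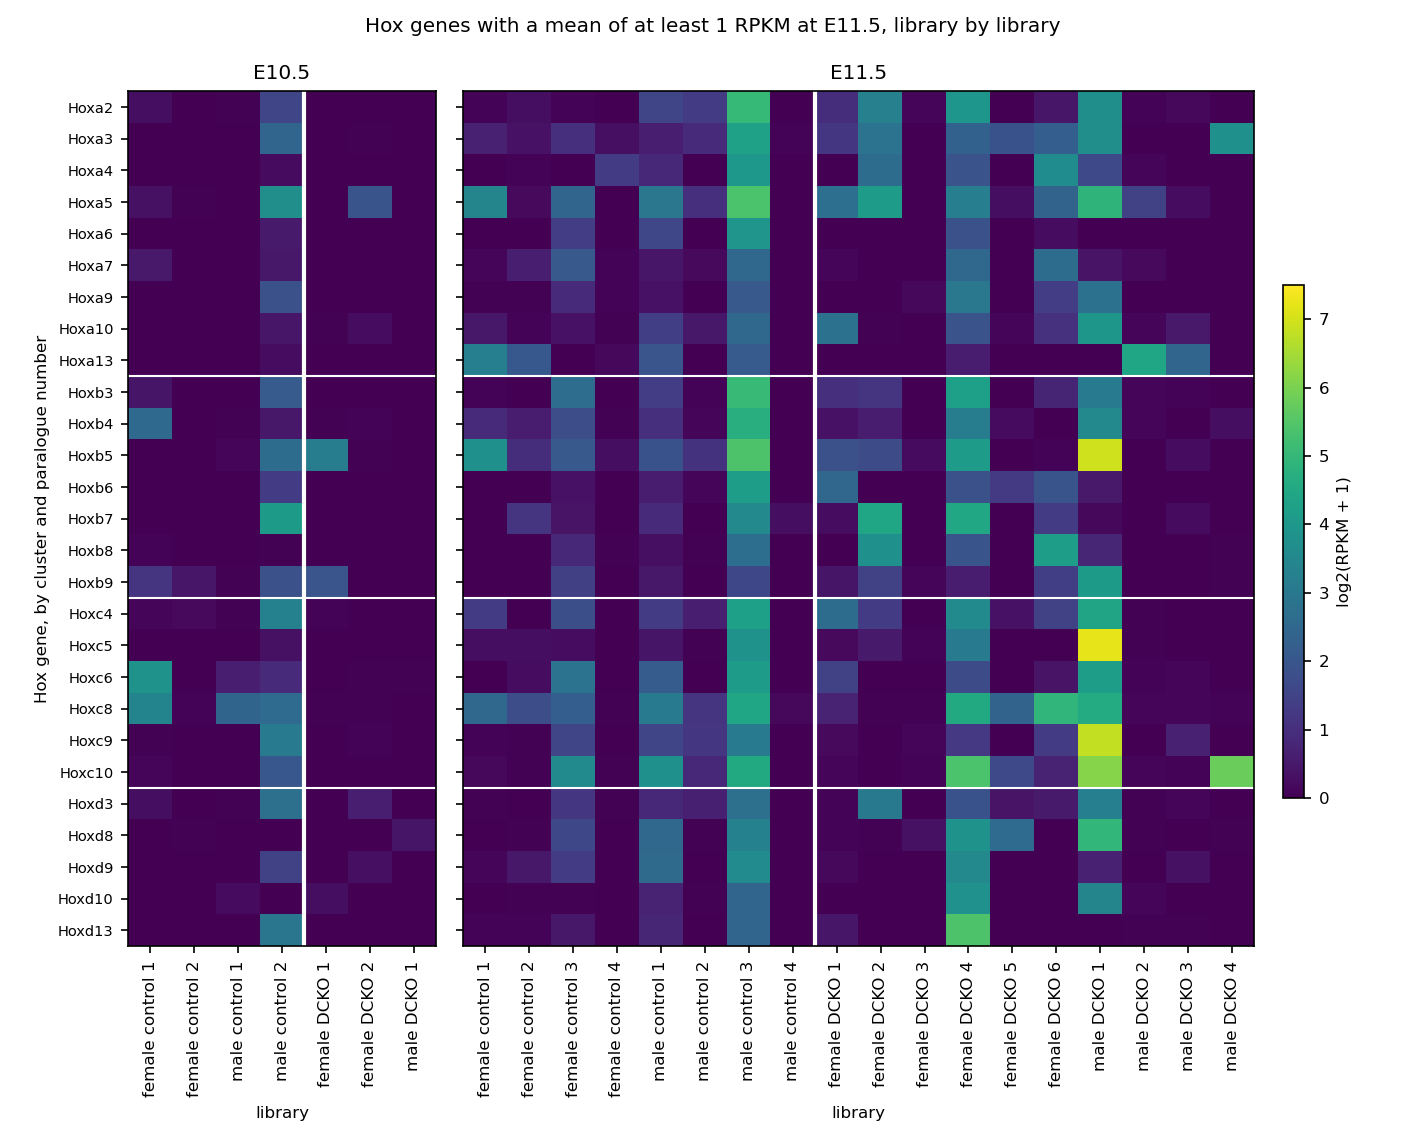
Level of the 27 Hox genes that averaged 1 RPKM or more at E11.5 (rows, by cluster and paralogue number) in each library (columns) at E10.5 and E11.5, as log2(RPKM + 1), with controls left and DCKO right of the white vertical line and white horizontal lines between clusters. Male control 2 at E10.5 and male control 3, female DCKO 4 and male DCKO 1 at E11.5 show signal across all 4 clusters. Female control 3 and male control 1 at E11.5 show weaker signal across all 4, and most other libraries show a few bright cells.

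At E11.5 Hox RNA was spread unevenly over the libraries. Of 702 values, 178 (25.4%) reached 1 RPKM, beside 43.3% for all genes, and 325 were listed at 0. Without the 3 libraries highest in somatic markers the Hox share was 15.7% (92 of 585) and that of all genes 42.4%. The stages were not tested against each other, since their tables may have been normalized separately.

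The summed Hox RPKM at E11.5 was 40.2, 10.6, 60.2 and 2.41 in the 4 female controls and 68.3, 10.01, 425 and 0.382 in the 4 male controls. In the 6 female DCKO libraries it ran from 0.905 to 293 with a median of 60.3, and in the 4 male DCKO libraries it was 681, 23.7, 9.29 and 67.4. The genotypes overlapped over nearly the whole range: the 10 DCKO libraries spanned 0.905 to 681 (median 50.8) and the 8 controls 0.382 to 425 (median 25.4). The 3 highest sums were those of male DCKO 1, male control 3 and female DCKO 4, the 3 libraries that stood apart in somatic markers. Without them the 8 DCKO libraries had a median of 28.9 (0.905 to 87.5) and the 7 controls one of 10.6 (0.382 to 68.3). Even in the highest library the Hox genes made up 0.0822% of the summed RPKM of all genes at most.

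**Figure D2:**
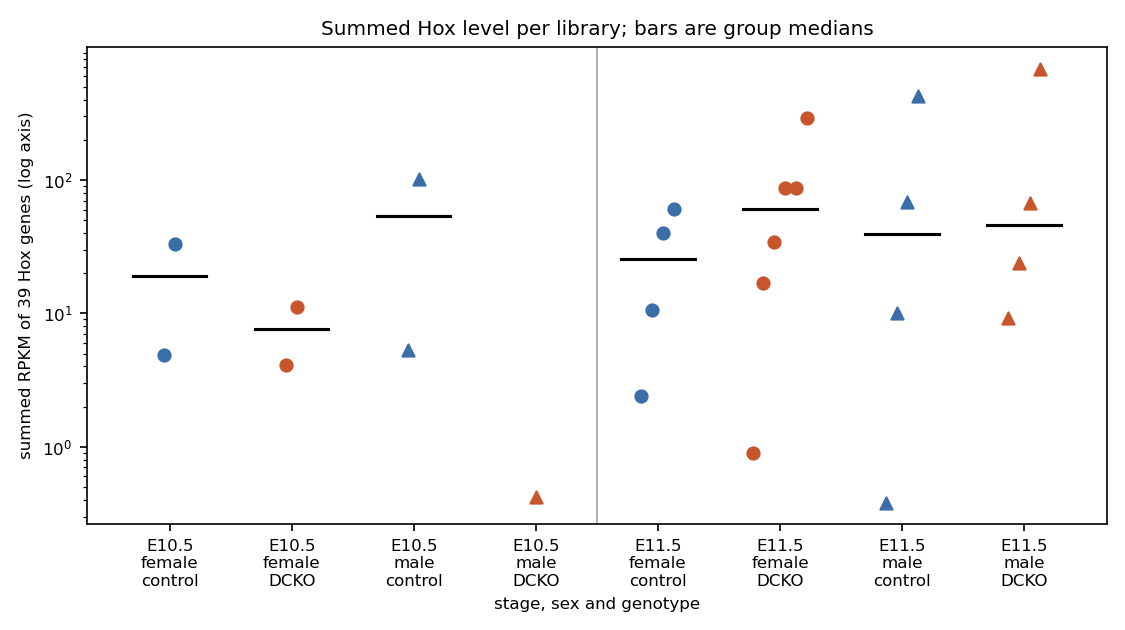
Summed RPKM of the 39 Hox genes (y axis, logarithmic) in each library, by stage, sex and genotype (x axis). Each point is 1 library, circles female and triangles male, blue control and orange DCKO, and the black bars are the medians of groups with more than 1 library; DCKO and control points overlap at E11.5.

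The 4 clusters did not carry equal shares in the 3 highest libraries. Male control 3 had 139.6 RPKM from Hoxa, 143 from Hoxb, 99.1 from Hoxc and 43.0 from Hoxd. Female DCKO 4 had 50.4, 71.1, 84.8 and 87.0 RPKM in the same order, and male DCKO 1 had 76.9, 162, 389.6 and 52.9. Hoxc thus gave 57.2% of the Hox sum in male DCKO 1 but 23.4% in male control 3, and Hoxd gave 29.7% in female DCKO 4. By paralogue class, posterior genes summed to 125 RPKM in female DCKO 4 beside 41.2 for anterior genes, and male control 3 had the opposite order, 71.5 and 97.9. Among the members, Hoxd13, which patterns digits and the genital tubercle, reached 41.7 RPKM in female DCKO 4, 4.50 in male control 3 and was listed at 0 in male DCKO 1.

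Outside these 3 libraries, female control 3 and male control 1 also had members at 1 RPKM or more in every cluster. In that order, Hoxa5 was at 4.45 and 6.93 RPKM, Hoxb5 at 3.28 and 2.72, Hoxc10 at 11.1 and 12.6 and Hoxd9 at 1.50 and 5.00. In several other libraries single members were high alone. Male DCKO 4 had Hoxc10, a gene of the lumbar spine and hindlimb, at 54.5 RPKM and Hoxa3, a gene of the pharyngeal arches, at 12.6, with no other member at 1 RPKM and 32 members listed at 0. Male DCKO 2 had Hoxa13, which patterns the distal limb and hindgut, at 20.2 RPKM, 85.2% of its Hox sum. Hoxa13 also led in male DCKO 3 (4.47 RPKM) and in female control 2 (3.17 RPKM), and stood at 8.41 RPKM in female control 1. Female DCKO 6 had Hoxc8 at 29.8 and Hoxb8 at 17.6 RPKM, and female DCKO 2 had Hoxb7 at 20.1, Hoxa5 at 16.3 and Hoxb8 at 12.7 RPKM. At the other end, no member reached 1 RPKM in male control 4 or female DCKO 3, whose Hox sums were 0.382 and 0.905 RPKM. Male control 4 had 36 of the 39 members listed at 0, and 8277 genes in all at 1 RPKM, the fewest of the 18 libraries.

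Across the 18 libraries the members with the highest mean at E11.5 were Hoxc10, Hoxb5, Hoxc5 and Hoxa5. Hoxc10 was at 0 to 22.4 RPKM in the 8 controls (median 0.469) and 0 to 69.8 in the 10 DCKO libraries (median 0.373). Hoxb5, a gene of the shoulder level and the gut's nerve cells, was at 0 to 41.8 RPKM in controls (median 1.92) and 0 to 124 in DCKO (median 0.173). Hoxc5 was at 0 to 13.4 RPKM in controls (median 0.194) and 0 to 148 in DCKO (median 0.0412). For all 3 genes the ranges overlapped and the highest library was male DCKO 1; Hoxc5 passed 1 RPKM only in the 3 libraries highest in somatic markers. Hoxa5 was the most widely detected of the 4, at 1 RPKM or more in 11 of 18 libraries, from 0 to 40.8 RPKM in controls (median 2.74) and 0 to 28.2 in DCKO (median 2.97). Hoxc8 was the only member above 0 in every E11.5 library, and Hoxb13 and Hoxc12 were listed at 0 in all 18; at E10.5 Hoxb1, Hoxc11 and Hoxc12 were listed at 0 in all 7.

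Of the 37 members above 0 in any E11.5 library, 32 had their highest value in 1 of the 3 libraries highest in somatic markers, beside 33.6% of all genes above 0, and at E10.5 23 of 36 had it in male control 2, beside 16.3%. Levels of further members are given in the order male control 3, female DCKO 4 and male DCKO 1, followed by the highest of the other 15. Of the anterior genes, Hoxa2 of the hindbrain and branchial arches was at 31.4, 14.3 and 12.4 RPKM against 8.59, Hoxb3 at 31.9, 17.9 and 7.41 against 5.46, and Hoxd3 at 5.79, 2.72 and 8.49 against 7.17. Of the central genes, Hoxb4 was at 25.7, 7.94 and 10.7 RPKM against 2.43, Hoxa7 at 4.75, 4.78 and 0.318 against 5.24 and Hoxd8 at 8.74, 13.49 and 30.5 against 5.14. Hoxb3, Hoxb4 and Hoxd8 were higher in each of the 3 than in any other library, and Hoxa7 was highest in female DCKO 6. Of the posterior genes, Hoxa9 was at 3.30, 6.94 and 5.98 RPKM against 1.58, Hoxc9 at 7.57, 1.38 and 111 against 1.97, and Hoxa10, a gene of the uterus and hindlimb, at 4.72, 2.76 and 14.8 against 6. Male DCKO 1, the library with the highest Hox sum, had 9 of the 39 members listed at 0, among them Hoxa6, Hoxa13 and Hoxd13, while male control 3 had 2.

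The mean of a member over the libraries reached 1 RPKM for 8 of the 39 at E10.5, where 47.6% of all genes did, and for 27 of the 39 at E11.5, where 52.1% of all genes did. The 8 at E10.5 (Hoxa5, Hoxb5, Hoxb7, Hoxb9, Hoxc4, Hoxc6, Hoxc8 and Hoxc9) were all among the 27 at E11.5. At E11.5 these were 9 of 11 Hoxa, 7 of 10 Hoxb, 6 of 9 Hoxc and 5 of 9 Hoxd genes, and 4 of 8 anterior, 14 of 15 central and 9 of 16 posterior genes. Without the 3 libraries highest in somatic markers 9 members kept a mean of 1 RPKM: Hoxa3, Hoxa4, Hoxa5, Hoxa13, Hoxb5, Hoxb7, Hoxb8, Hoxc8 and Hoxc10. The share of all genes was then 49.4%. Without male control 2 at E10.5, 3 members did (Hoxb5, Hoxc6 and Hoxc8). Among the 12 members under this level at both stages were Hoxb1, Hoxb2 and Hoxd1, which act in the hindbrain, and Hoxb13, Hoxc12, Hoxc13 and Hoxd12 of the posterior class.

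Hox RNA and RNA of mesenchyme markers were high in the same E11.5 libraries. The 14 mesenchyme markers (Col1a1, Pdgfra, Twist1, Prrx1 and others) summed to 1159 RPKM in male control 3, 659 in male DCKO 1 and 585 in female DCKO 4, and none of the 14 was listed at 0 in any of the 3. In the other libraries the sum ran from 149 to 290.1 in the 7 controls and from 78.2 to 249 in the 8 DCKO libraries, with up to 6 markers listed at 0 in a library. Much of the sum in those libraries can be Fn1, 1 of the 14. Over all E11.5 libraries Fn1 averaged 124 RPKM in controls (standard deviation 24.4) and 97.0 in DCKO (16.1). Within these 15 libraries the mean log2(RPKM + 1) of the 39 Hox genes and of the mesenchyme markers had a Pearson's r of 0.93 and a Spearman's rho of 0.86, and r was 0.89 without the 2 libraries farthest from the median of the markers. Of 10 marker means set beside the Hox mean in these 15 libraries, the others gave an r of 0.55 for gonadal somatic cells, 0.55 for endothelium, 0.62 for gut epithelium, 0.47 for mesonephric and coelomic epithelium, 0.53 for neural tube, 0.11 for red cells, 0.036 for macrophages, -0.13 for germ cell identity and 0.83 for the 6 somatic lists together. These are descriptions over libraries that share their amplification and unknown depth, and the part of other cells in the Hox level was not tested. In bulk RNA, fewer cells of a type and less RNA per cell cannot be told apart.

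The 3 libraries highest in Hox RNA differed in which other markers they carried. Male control 3 had red cell markers (globins, Alas2 and others) summing to 2232 RPKM and no macrophage marker listed at 0. Male DCKO 1 had all 8 red cell markers listed at 0, 10 of 12 macrophage markers listed at 0 (Csf1r and Ptprc among them), and of the gonadal somatic list Nr5a1, Nr0b1, Amh and Foxl2 listed at 0, while its gonadal somatic markers summed to 142 RPKM and its endothelial markers to 316. Female DCKO 4 had red cell markers at 1635 RPKM and gonadal somatic markers at 136, with Amh and Foxl2 listed at 0. Female DCKO 6, whose red cell markers summed to 1380.4 RPKM, had a Hox sum of 87.5, and female control 4, at 353 RPKM of red cell markers, had a Hox sum of 2.41.

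**Figure D3:**
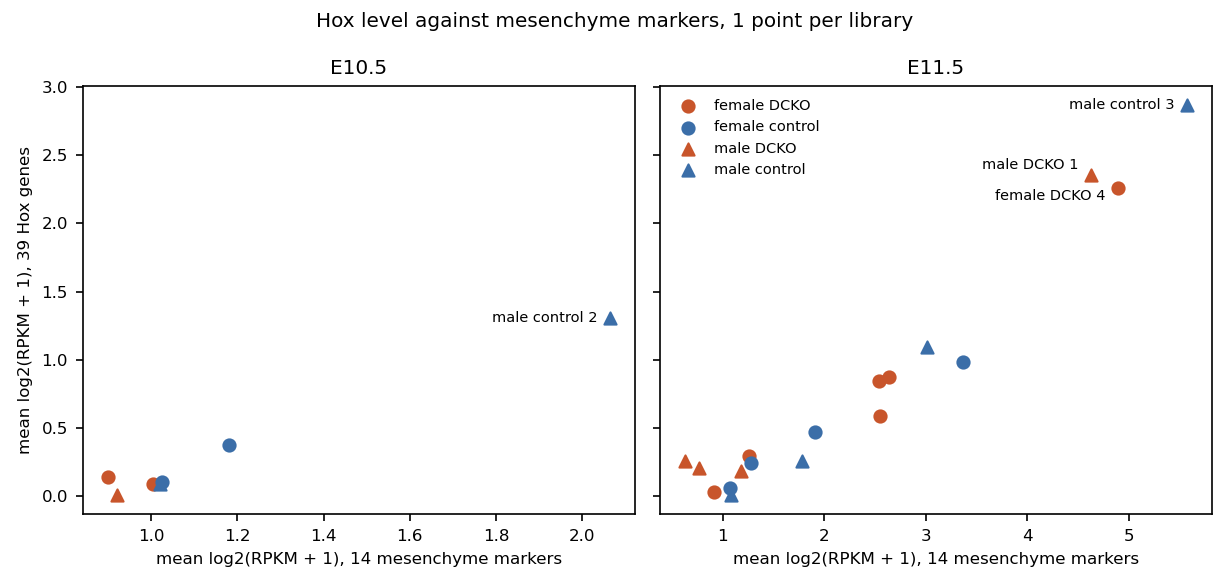
Mean log2(RPKM + 1) of the 39 Hox genes (y axis) against that of 14 mesenchyme markers (x axis, a different range in each panel), 1 point per library, at E10.5 and E11.5; circles are female and triangles male, blue control and orange DCKO. The named libraries lie at the upper right, and at E11.5 both genotypes lie along the same run of points.

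At E10.5 no Hox gene differed between DCKO and control PGCs past the threshold (Benjamini-Hochberg adjusted p under 0.05, limma on log2(RPKM + 1), two-sided, with a term for sex). The 8 members with a mean of at least 1 RPKM were tested, and 0 were called, as were 0 (0%) of all 11584 genes tested. Dnmt1 itself was thus not called, though its groups did not overlap, so the lack of calls at this stage says little about the Hox genes. At an unadjusted p under 0.05, 0 of the 8 were higher in DCKO, beside 1.49% of all genes, and 1, Hoxc8, was lower, beside 1.6%. Adding 1 RPKM before taking the log2 shrinks the differences of genes with low values. The median log2 difference of the 8 was -0.68, with 1 above 0 (Hoxb5), beside -0.052 and 46.8% above 0 for all genes tested. Of the 8, only Hoxb5, Hoxc6 and Hoxc8 averaged 1 RPKM without male control 2. The other members tested passed the filter only through that control library, so their direction was not free of the filter. Without male DCKO 1 the median was 0.0038 with 6 of 10 members above 0, and without male control 2 it was -1.47 over 3 members.

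Hoxc8, a gene of the thoracic level, was at 9.35 and 0.05 RPKM in the female controls and 4.35 and 5.22 in the male controls, and at 0.0325 and 0.0209 in the female DCKO and 0.0151 in the male DCKO libraries. All 3 DCKO libraries lay below all 4 controls, though female control 2 was nearer to the DCKO libraries than to the other controls. Its log2 difference was -2.01 (standard error 0.87, adjusted p = 0.991; below 0 in each fit without 1 library, -2.92 to -1.27), and the exact permutation p (two-sided) was 0.0571. It was the 1 member of 8 whose groups did not overlap, beside 5.15% of all genes tested. Hoxc6 had a difference of -1.44 (standard error 0.96, adjusted p = 0.991), Hoxb7 one of -0.82 (standard error 1.03, adjusted p = 0.991), Hoxc4 one of -0.74 (standard error 0.89, adjusted p = 0.991) and Hoxa5 one of -0.27 (standard error 1.08, adjusted p = 0.991). Without male DCKO 1 these were 0 for Hoxb7, -0.12 for Hoxc4 and 0.79 for Hoxa5; without female control 2 Hoxc6 was at -2.28. None of these 4 passed the threshold, and the groups of each overlapped or were tied at 0. At E11.5 the Hoxc8 groups overlapped, with controls at 0.0229 to 20.7 RPKM (median 3.08) and DCKO at 0.0288 to 29.8 (median 0.394), and a log2 difference of -0.24 (standard error 0.86, adjusted p = 0.992).

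At E11.5, too, no Hox gene differed between genotypes past the threshold. Of the 27 members tested 0 were called, beside 3 (0.0237%) of 12667 genes, 1 of which is Dnmt1. Standard errors of the 27 log2 differences ran from 0.49 (Hoxa6) to 1.03 (Hoxc10). Changes of about that size would not be called, so the lack of calls does not show that Hox RNA was unchanged. At an unadjusted p under 0.05, 0 of the 27 were higher in DCKO (1.73% of all genes) and 0 were lower (3.73%), and 0 of the 27 had groups that did not overlap (0.0395%). The log2 differences ran from -0.68 to 0.77 with a median of 0.14, and 17 of 27 were above 0; for all genes tested the median was -0.059, with 45% above 0. By cluster the medians were 0.13 for Hoxa (5 of 9 above 0), 0.036 for Hoxb (4 of 7), 0.20 for Hoxc (4 of 6) and 0.24 for Hoxd (4 of 5), and by class 0.21 for anterior, -0.0062 for central and 0.29 for posterior genes. The 9 members that averaged 1 RPKM without the 3 libraries highest in somatic markers included no Hoxd gene. Of Hoxc they held only Hoxc8 and Hoxc10, and of the posterior class only Hoxa13 and Hoxc10. The other members passed the filter only through those 3 libraries, so the signs of these cluster and class medians were not free of it. The sign of the median over the 27 rested on single libraries. Without male control 3 it was 0.53 (21 of 23 above 0), without male DCKO 1 -0.28 (5 of 24), without female DCKO 4 -0.027 (10 of 23), without male control 4 -0.080 (10 of 27) and without male control 2 -0.058 (13 of 27). Without all 3 libraries highest in somatic markers it was 0.13 over the 9 members still tested, and with a covariate for the somatic markers 0.36 (22 of 27 above 0); 0 members were called in either fit.

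The members with the smallest p at E11.5 were Hoxa6, Hoxa3 and Hoxd9. Hoxa6, a gene of the lower neck and thorax, was at 0 to 14.1 RPKM in the 8 controls and 0 to 2.60 in the 10 DCKO libraries, with a median of 0 in both and a log2 difference of -0.68 (standard error 0.49, adjusted p = 0.946). Hoxa3 was at 0.0555 to 18.4 RPKM in controls (median 0.583) and 0 to 12.6 in DCKO (median 3.19), with a difference of 0.77 (standard error 0.66, adjusted p = 0.946). Hoxa3 reached 1 RPKM in 7 of 10 DCKO and 2 of 8 control libraries, and the ranges overlapped. Hoxd9, a gene of the lumbar level and proximal limb, was at 0 to 11.2 RPKM in controls (median 0.249) and 0 to 10.6 in DCKO (median 0), with a difference of -0.58 (standard error 0.57, adjusted p = 0.953). Without male control 3 the difference was -0.24 for Hoxd9 and 1.24 for Hoxa3; Hoxa3 was at 0.46 without male DCKO 1 and 0.45 without male DCKO 4. Exact permutation tests of the 18 libraries gave p between 0.229 (Hoxa6) and 0.999 (Hoxa5) over the 10 members given by name at E11.5. Among the 4 most abundant members the differences were 0.55 (standard error 1.03, adjusted p = 0.988) for Hoxc10, -0.37 (standard error 0.97, adjusted p = 0.992) for Hoxb5, 0.59 (standard error 0.87, adjusted p = 0.975) for Hoxc5 and -0.048 (standard error 0.85, adjusted p = 0.996) for Hoxa5, all smaller than their standard errors. Without male DCKO 1 these were 0.029, -1.23, -0.31 and -0.59, and without male control 3 0.92, 0.19, 1.06 and 0.46.

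**Figure D4:**
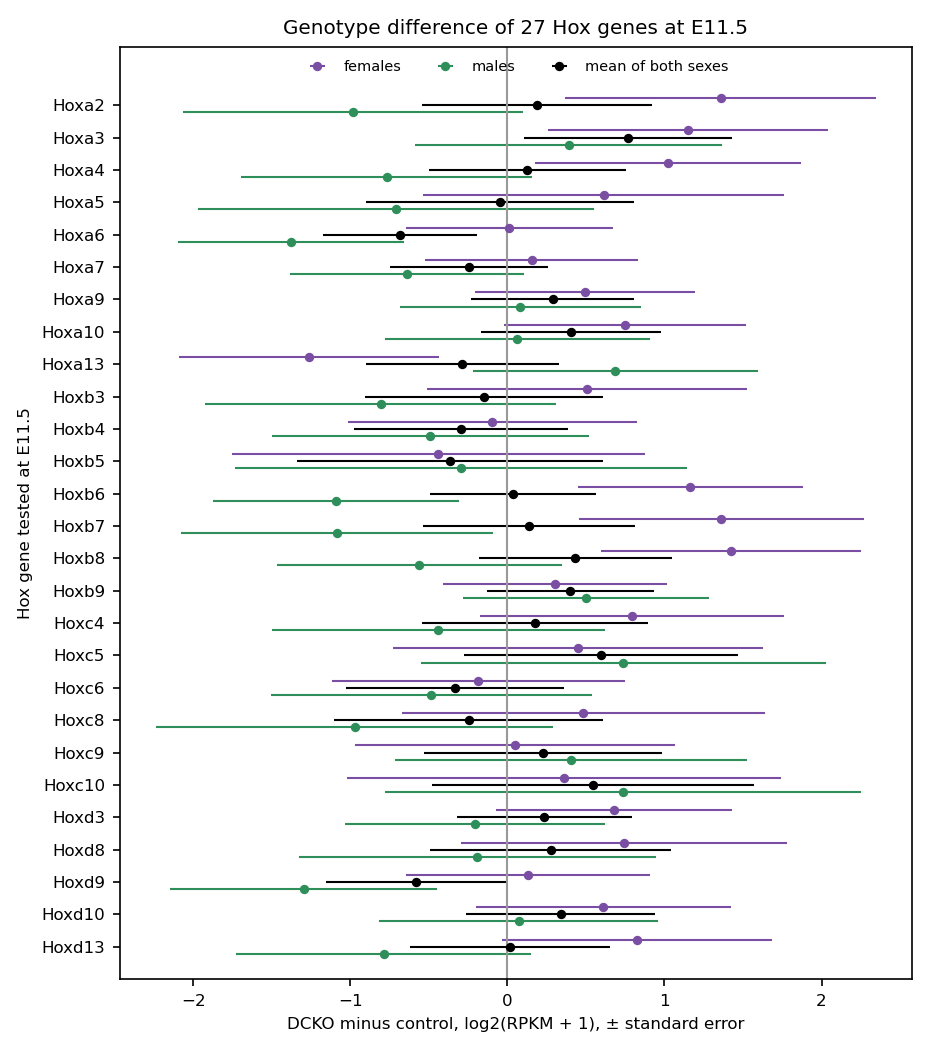
Log2 difference DCKO minus control (x axis, log2(RPKM + 1), points with standard errors as lines) of the 27 Hox genes tested at E11.5 (y axis), in females (purple), in males (green) and as the mean of both (black). Black points lie between -0.68 and 0.77, and 15 of 27 members have the female point to the right of 0 and the male point to the left of it.

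Estimates in females and males lay on opposite sides of 0 for 16 of the 27 members, and none passed the threshold. In females 23 of 27 differences were above 0 (median 0.51, beside -0.015 for all genes); in males 9 of 27 were (median -0.48, beside -0.10). These estimates turned on single libraries. In males they were 19 of 23 above 0, median 0.42, without male control 3, and 1 of 24 above 0, median -1.19, without male DCKO 1. In females they were 12 of 23 above 0, median 0.20, without female DCKO 4. Without the 3 libraries highest in somatic markers they were 5 of 9 above 0, median 0.40, in females and 3 of 9 above 0, median -0.24, in males. With the somatic marker mean as covariate they were 15 of 27 above 0, median 0.047, in females and 23 of 27 above 0, median 0.65, in males. In each of these fits 0 members were called. By limma 0 of 27 were called in females (0.00789% of all genes) and 0 in males (0.0316%), and at an unadjusted p under 0.05 also 0 and 0 (2.17% and 6.95% of all genes). The difference of the genotype effect between the sexes was called for 0 of 27 members, as for 0% of all genes. Unadjusted, it was under 0.05 for 1 of 27, Hoxb6, beside 3.58% of all genes. For Hoxb6 the female effect minus the male effect was 2.26 (standard error 1.06, adjusted p = 0.995). Hoxb6 averaged 1 RPKM only with male control 3 (17.4 RPKM), so the direction of its estimate was not free of the filter. Control females and control males were also compared: 0 of 27 were called (0.00789% of all genes), 0 at an unadjusted p under 0.05 (2.35%), and 1 of 27 estimates was higher in females, beside 53.4% of all genes. Without male control 3 it was 13 of 23, and without the 3 libraries 7 of 9. The 15 germ cell markers were all higher in control females (median 0.90), with 0 called and 2 at an unadjusted p under 0.05. The male controls here included male control 3, 1 of the 3 libraries lowest in germ cell markers, and no count without it is given. Mesenchyme marker estimates lay mostly on the same side as the Hox estimates, with 11 of 14 above 0 in females, 0 of 14 in males and, with male control 3, 0 of 14 higher in control females. Endothelial markers (10, 1 and 0 of 11) and red cell markers (4, 0 and 0 of 4) did likewise in these 3 comparisons. Gonadal somatic markers had 6, 3 and 3 of 10, gut markers 5, 3 and 3 of 6 and macrophage markers 1 of 4 in each.

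In females the smallest p were those of Hoxb8, Hoxb6 and Hoxa13. Hoxb8, a gene of the thoracic level and of blood progenitors, differed by 1.42 (standard error 0.83, adjusted p = 1); it was at 12.7, 2.82 and 17.6 RPKM in 3 female DCKO libraries and listed at 0 in the other 3, while female controls reached 0.834 at most. Hoxb6 differed by 1.16 (standard error 0.72, adjusted p = 1); 4.54, 2.66, 1.40 and 2.83 RPKM were measured in 4 of 6 female DCKO libraries and 0 in the others, and 0.294 in female control 3 with 0 in the other 3 controls. For both genes some DCKO libraries lay at the level of the lowest controls. Hoxa13 differed by -1.26 (standard error 0.83, adjusted p = 1); female controls were at 8.41, 3.17, 0 and 0.122 RPKM, and 5 of 6 female DCKO libraries were listed at 0. Leaving out female control 1 moved Hoxa13 to -0.64, and leaving out female DCKO 6 moved Hoxb8 to 0.91. In males the smallest p were those of Hoxa6, with a difference of -1.38 (standard error 0.72, adjusted p = 0.749), Hoxd9, with -1.30 (standard error 0.85, adjusted p = 0.783), and Hoxb6, with -1.09 (standard error 0.78, adjusted p = 0.801). Without male control 3 Hoxd9 was at -0.61, and Hoxa6 and Hoxb6 no longer averaged 1 RPKM. Hoxa6 was listed at 0 in all 4 male DCKO libraries and in male controls 2 and 4, and was at 2.01 and 14.1 RPKM in male controls 1 and 3. Hoxd9 was at 5.00 and 11.2 RPKM and Hoxb6 at 0.484 and 17.4 RPKM in the same 2 controls, against at most 0.595 and 0.424 RPKM in male DCKO libraries.

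Genes that work with, switch on or silence the Hox clusters were examined in 6 lists, and by limma 0 of their members passed the threshold between genotypes at either stage. At an unadjusted p under 0.05 there were 2 of 27 Polycomb genes, 1 of 17 genes beside the clusters and 3 of 21 other patterning genes at E11.5, beside 5.46% of all genes, and 1 of 26 Polycomb genes at E10.5, beside 3.09%, with 0 in the other lists. The cofactors of the TALE class (Pbx, Meis and Pknox), which bind DNA together with Hox proteins, had 8 of 9 members tested at E11.5, 3 above 0, with a median of -0.17. Meis2 stood at 75.4 RPKM in male control 3, 67.2 in female DCKO 4 and 41.0 in male DCKO 1 and at 16.1 RPKM or less elsewhere. Activators and axial regulators had 13 of 18 tested, 9 above 0, with a median of 0.36. Among them Aldh1a2, which makes retinoic acid, was at 128, 112 and 45.5 RPKM in the same 3 libraries and at 26.4 or less in the rest, and Rarb, a retinoic acid receptor, had the smallest p of the list (log2 difference 0.91, standard error 0.60, adjusted p = 0.935). Meis2 and Aldh1a2 were highest in libraries of both genotypes. Over the 15 E11.5 libraries outside these 3, the mean log2(RPKM + 1) of the TALE cofactors and of the Hox genes had an r of 0.88 and a rho of 0.89. For mesenchyme markers these were 0.93 and 0.86. The other lists gave an r of 0.68 for genes beside the clusters, 0.61 for activators and axial regulators and 0.56 for other patterning genes. Polycomb and trithorax genes gave 0.28 and 0.049.

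The core subunits of Polycomb repressive complex 2, which silences Hox clusters, were present in every E11.5 library. Ezh2, which writes the repressive histone mark, ran from 57.2 to 142 RPKM, Eed from 8.36 to 109.6 and Suz12 from 15.7 to 100.3. Jarid2, an accessory subunit, was listed at 0 in all 18. Of 30 genes of both Polycomb complexes 27 were tested, 16 above 0, with a median of 0.019; the smallest p belonged to Ring1, an E3 ligase subunit (log2 difference -1.42, standard error 0.58, adjusted p = 0.902). Trithorax genes and histone demethylases, which oppose Polycomb, had 12 of 12 tested, 5 above 0, with a median of -0.089 and the smallest p for Wdr5 (log2 difference 0.45, standard error 0.31, adjusted p = 0.946). At E10.5, 9 of 26 Polycomb and 3 of 12 trithorax genes tested were above 0, with medians of -0.30 and -0.19.

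Several genes that lie beside the clusters and are not Hox genes were above 0 in all 18 E11.5 libraries. Cbx5 beside Hoxc ran from 20.6 to 143 RPKM, Mtx2 beside Hoxd from 22.1 to 73.5, Skap2 beside Hoxa from 1.34 to 190.3 and Smug1 beside Hoxc from 2.74 to 17.4. Of this list, 17 of 29 genes in the tables were tested at E11.5, 10 above 0, with a median of 0.11; Smug1, a DNA repair enzyme, had the smallest p (log2 difference -0.64, standard error 0.28, adjusted p = 0.902). The noncoding Hotairm1 within Hoxa was instead listed at 0 in 12 libraries and stood at 77.0, 50.6 and 47.7 RPKM in the same 3 libraries, in the order male control, female DCKO and male DCKO. The sources used here do not say whether counting used strand, so reads of a Hox gene and of an antisense or overlapping transcript cannot be told apart. Other patterning genes of the trunk, most of them homeobox genes, had 21 of 30 tested, 11 above 0, with a median of 0.0045.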

How the data were processed

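Per the labels' protocols, fluorescent PGCs were sorted into lysis buffer, and RNA was extracted and amplified before library preparation, which can drop or inflate low transcripts. The authors deposited 1 table of RPKM values per stage, with 24318 genes and 1 column per library. The submitters' processing notes name the genome build mm9, TopHat2 2.1.0, Cufflinks 2.2.1 and Cuffdiff, with no role; which gene models were used, and whether strand was, is not given in the sources used here. Low values do not fall on multiples of 1 read, and depth is thus unknown.

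Tests used limma 3.58.1 in R 4.3.3 (empirical Bayes with trend) on log2(RPKM + 1) for genes averaging 1 RPKM or more, separately by stage. The E11.5 model held 4 sex by genotype means, and the E10.5 model genotype and sex. The adjusted p threshold was 0.05, over all genes tested. The fit was tested on simulated data with large changes placed in well expressed genes of low spread. That setting is unlike the Hox genes and does not show which changes of theirs could be called. Named members are the 4 with the highest mean per stage and the 3 with the smallest p in each genotype comparison; other genes named were picked after seeing their values. The members, lists and tests were chosen with earlier results of these data known. Alternatives were a pseudocount of 0.1 or 0.5, dropping the filter or raising it to 5 RPKM, 2 scalings, replicate blocks, a somatic covariate, other models and leaving out libraries. Promoter stretches are RefSeq's, matched by symbol. Some single-gene results are not reported here.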

Additional observations from a re-analysis of the deposited data

Results flagged for a closer look

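Within the E11.5 groups of 4 to 6 libraries, 59 sets of values (Hox sums, cluster sums and named members, on the log2(RPKM + 1) scale) were examined for 1 library far from the rest by Dixon's test, and 18 had one. Chance flags about 1 in 20 sets of independent, untied values; these sets share libraries, and in 4 all other values were 0 (Hoxa6 and Hoxb6 in female control 3, Hoxb6 in male DCKO 1 and Hoxa13 in female DCKO 4), so that rate cannot be applied. Male DCKO 1 stood above the other 3 male DCKO libraries in the Hoxd sum (52.9 RPKM), Hoxb5 (124), Hoxc5 (148), Hoxb8 (0.735) and Hoxb6 (0.424). Male control 3 stood above the other male controls in Hoxc5 (13.4 RPKM), Hoxb8 (5.61) and Hoxb6 (17.4). Female DCKO 4 stood above the other 5 female DCKO libraries in Hoxc10 (40.4 RPKM), Hoxc5 (7.33), Hoxa6 (2.60), Hoxd9 (10.6) and Hoxa13 (0.528). Female control 3 stood above the other female controls in Hoxc10 (11.1 RPKM), Hoxa6 (1.57), Hoxb8 (0.834) and Hoxb6 (0.294), and had the highest somatic marker mean of that group (1.91). Female control 4 stood below the others in Hoxc5, listed at 0.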

How the results depend on the processing

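Under every alternative run, 0 Hox genes were called in each of the 6 comparisons, and no called value changed. The mean filter of 5 RPKM left no Hox gene to test at E10.5 and gave no value there. Several named members changed sign, Hoxc5 (0.59) and Hoxc10 (0.55) at E11.5 among them. Hoxa5 at E10.5 (-0.27) was 0.13 with a replicate block by replicate number and 0.14 with the somatic marker mean as covariate, and -1.02 to 0.79 leaving out 1 library. Hoxa5 at E11.5 was 0.15 with that replicate block, 0.32 with the covariate and -0.59 to 0.46 leaving out 1 library. Hoxb5 at E11.5 was 0.080 with the covariate and -1.23 to 0.19 leaving out 1 library, Hoxc5 ran from -0.31 to 1.06, and Hoxc10 was -0.00011 without the 3 libraries highest in somatic markers; the cause was not tested beyond these fits. The numbers in the labels were not taken to pair libraries: deviations of same-numbered E11.5 libraries correlated at -0.17 to 0.15 by replicate number (8 pairs) and -0.023 to 0.21 by title number (10 pairs, 5 over 0.1). 3 of the 4 libraries highest in somatic markers at E11.5 share a title number. The E11.5 Hox median was 0.24 and 0.12 under these replicate blocks. The log2 of the Hox sum was on average 1.06 higher in DCKO at E11.5 and fell by 2.09 at E10.5, and the mean log2 level of the 39 members differed by 0.039 and -0.39; each was near or below the spread between libraries (2.68 and 2.01 for the sums). With depth unknown, no floor can be set for members listed at 0.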

Other observations

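Noncoding transcripts within the clusters other than Hotairm1 were high in few E11.5 libraries. Mira, in Hoxa, was at 134 RPKM in male DCKO 1, 21.2 in female DCKO 4 and 16.1 in male control 3, and at 18.7 or less in the other 15. Hoxb5os was at 83.1 RPKM in male DCKO 1, where Hoxb5 was highest among the members of its cluster, and was listed at 0 in 11 of 18. Hoxaas2 was at 21.4 RPKM in male DCKO 1 and listed at 0 in 14 of 18. Hoxd3os1 was highest in female DCKO 6, at 12.6 RPKM, a library with Hoxd3 at 0.469 RPKM. These rows overlap or abut Hox genes, and whether reads were assigned by strand is not given in the sources used here.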
